A study of Mus musculus with 4 samples.

Results

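The proneural factors examined were 8 transcription factor genes, Neurog1, Neurog2, Neurog3, Neurod1, Neurod2, Neurod4, Atoh1 and Insm1. They were taken by gene symbol from a table of 33708 autosomal features measured by RNA-seq in the mouse frontonasal prominence (FNP), the tissue that forms the nose and upper snout. All 8 had a row. The 4 libraries came from FVB/NJ embryos at E10.5 with 29 somites. WT was Smchd1+/+, with 1 female and 1 male embryo by their labels, and MD43 was Smchd1MommeD43/MommeD43, with 2 male embryos. Another record of the study names WT replicate 2 as female, in which case sex and genotype would coincide. MommeD43 is a missense allele of Smchd1 induced with the chemical mutagen ENU, and MD43 embryos carried it on both chromosomes. SMCHD1 is a chromatin protein involved in gene silencing, and the mutation is not restricted to any cell type or stage. Replicate 2 of each genotype had the same mother, and the other embryos came from separate mothers.

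Proneural factors are basic helix-loop-helix (bHLH) proteins that turn dividing progenitors towards a neuronal fate. They pair with widely expressed E proteins, bind the E-box motif CANNTG, and raise Notch ligands that hold neighbouring cells in the progenitor state, while Id proteins take the E proteins out of use. NEUROG1 and NEUROG2 are known for the neurons of cranial placodes, dorsal forebrain and sensory ganglia, NEUROG3 for the endocrine pancreas, and ATOH1 for the hindbrain rhombic lip and hair cells of the inner ear. NEUROD1, NEUROD2 and NEUROD4 act later in the same cascades. INSM1 is not a bHLH protein but a zinc finger factor switched on in newly born neurons and in olfactory progenitors.

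Each genotype had 1 deposited value per gene, in log2 RPKM (read density scaled to exon length in kilobases and to library size), made from both of its libraries. The value was the mean of the log2 RPKM of the 2 libraries, and the product of both counts could be recovered from it. Reads below are the geometric mean of the 2 libraries. The depth implied by the table was 16055882 reads per library in WT and 22328791 in MD43, a ratio of 1.39. With 1 value per genotype there was no spread between embryos, no test and no p-value. The error given with a log2 difference is the smallest standard error that counting these reads allows, and the intervals built on it (95%, 1.96 times the error) are for that reason too narrow and cover counting error only. Differences are MD43 minus WT throughout, and a gene was counted as past the threshold when it lay at least 2-fold apart among the 15377 features that reached 10 reads in either genotype.

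Of the 8 factors, 6 reached 10 reads in a genotype. Neurog2 was the only one at least 2-fold lower in MD43, and Neurog3 the only one at least 2-fold higher. Neurod4 stopped just short of the threshold on the lower side. Among all features tested, 2.47% (380) lay 2-fold or more below WT and 1.64% (252) 2-fold or more above it. With at least 50 reads in a genotype, as for Neurog2 but not Neurog3, the numbers were 119 and 39 of 12580 features. Most features past 2-fold thus had fewer reads. The median difference of the 6 factors was 0.01, as was that of all features (0.01), with 3 factors lower and 3 higher. Their summed level was 21.5 RPKM in WT and 18.4 RPKM in MD43. In bulk tissue, fewer cells expressing a gene and less RNA per cell cannot be told apart. Smchd1 itself, the gene that carries the mutation, had 3.31 log2 RPKM in WT and 3.30 in MD43, a difference of -0.01 ± 0.02. A missense change need not alter the RNA level, so this value does not check the genotypes.

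**Figure D1:**
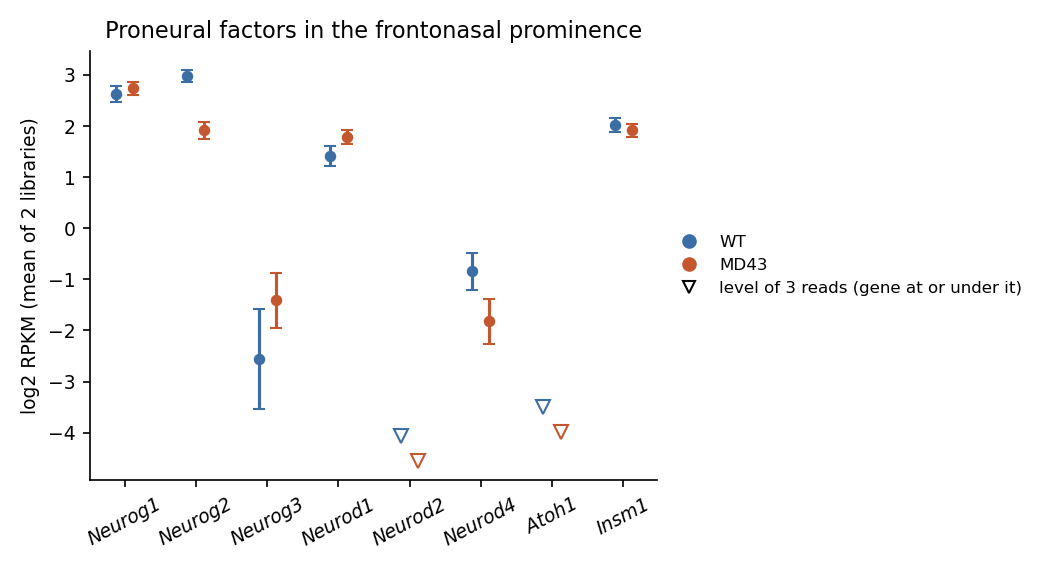
Level of each proneural factor in log2 RPKM, with 1 point for each genotype (WT blue, MD43 orange). Bars are 1.96 times the smallest counting error and hold no variation between embryos. Open triangles mark the level that 3 reads would give, for Neurod2 and Atoh1, which were at or under it. The points of Neurog2 stand 1.06 log2 units apart.

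Sequence upstream of the start site was examined for E-boxes, the motif that these proteins bind and through which they can act on each other. The RefSeq promoter table (GRCm38.p6, the C57BL/6J reference and not FVB/NJ) held 7 of the 8 genes, and Insm1, which it lacked, was not examined. The stretches shown are the 250 bases before the RefSeq start of the pair of genes past the 2-fold threshold and of Neurod1, the other examined factor above 10 reads with a motif. They are given 5′ to 3′ on the strand of the gene, with CANNTG in capitals. Neurog2 is at chr3:127632886-127633135 on the plus strand, Neurog3 at chr10:62132840-62133089 on the plus strand and Neurod1 at chr2:79456637-79456886 on the minus strand.
Neurog2: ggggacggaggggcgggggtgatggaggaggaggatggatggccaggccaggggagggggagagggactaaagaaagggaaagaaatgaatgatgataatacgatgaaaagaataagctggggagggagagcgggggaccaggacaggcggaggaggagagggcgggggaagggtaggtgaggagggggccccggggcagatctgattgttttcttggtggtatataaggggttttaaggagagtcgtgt
Neurog3: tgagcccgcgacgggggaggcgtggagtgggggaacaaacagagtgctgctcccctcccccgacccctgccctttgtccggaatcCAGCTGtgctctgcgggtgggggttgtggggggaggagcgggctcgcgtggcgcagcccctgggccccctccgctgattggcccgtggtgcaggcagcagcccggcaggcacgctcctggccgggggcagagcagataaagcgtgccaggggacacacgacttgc
Neurod1: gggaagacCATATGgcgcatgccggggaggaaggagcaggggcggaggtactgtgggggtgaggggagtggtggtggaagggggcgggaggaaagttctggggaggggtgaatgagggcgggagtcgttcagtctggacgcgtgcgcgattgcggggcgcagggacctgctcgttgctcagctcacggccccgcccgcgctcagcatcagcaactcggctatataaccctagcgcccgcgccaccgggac
The stretch before Neurog2 held no CANNTG. The same was found for Neurog1, for Atoh1 and for both start sites of Neurod4. That of Neurog3 held 1, CAGCTG, starting 165 bases before the start, and that of Neurod1 held 1, CATATG, at 242 bases. Neurod2, which had no reads, held the most, 3. CANNTG reads the same on both strands and was present in 66.2% of the 32851 promoter stretches of this length in the table. CAGCTG alone was present in 13.0% of them. CAGATG or CATCTG, the form of the E-box often bound by neurogenins and NeuroD proteins, occurred in 14.4% of all stretches, and among these genes in that of Neurod2 alone. A motif match is a description of letters, and its absence from these windows says nothing of sites farther away.

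The neurogenins came first in the hierarchy and spanned the widest range of differences. Neurog2 (ENSMUSG00000027967, GRCm38 chr3:127633135-127635631, plus strand), a determination factor of forebrain and placodal neurons, was the highest of the 8 in WT, at 7.84 RPKM from 280 reads. In MD43 it was at 3.77 RPKM from 187 reads. The difference was -1.06 ± 0.10, or 2.08-fold lower, with a counting interval from -1.26 to -0.86. Its level passed 60.8% of the features tested in WT and 43.4% in MD43.

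The recovered product of reads set limits on how the Neurog2 reads could be divided between the 2 libraries of a genotype. In WT the product was 78638, which can be split as 274 and 287 reads or, less evenly, as 137 and 574. In MD43 it was 35086, and the most even split was 106 and 331 reads, followed by 53 and 662. The MD43 libraries therefore differed at least 3.12-fold in Neurog2 reads, whichever embryo had the more. Genes whose product had 2 prime factors of at least 10 each had known counts, apart from a split of 1 read against the rest. They placed the deeper MD43 library at 1.55 times the shallower (median of 93 genes) and the deeper WT library at 1.44 times the shallower (113 genes). Each ratio was the larger over the smaller count of a gene, whichever library held the larger. The median of such ratios can lie above the true depth ratio. Only 2 of these 93 MD43 genes and 2 of the 113 WT genes were 3.12-fold apart or more.

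After division by this depth ratio, Neurog2 still differed at least 2.01-fold between the 2 MD43 libraries. With the ratio at its lower or upper quartile over the 93 genes the smallest gap was 2.24-fold or 1.78-fold. These are the smallest gaps that the MD43 value allows, and every other split or assignment gives a wider one. With the most even splits, the WT libraries lay at 14.9 and 20.5 RPM (reads scaled to library size alone) if the deeper library held more reads, and at 21.5 and 14.2 if the shallower one did. The MD43 libraries lay at 11.9 and 5.92 RPM in the former case and at 18.5 and 3.81 in the latter. In the former case both MD43 libraries were below both WT libraries in either WT arrangement, and in the latter the higher MD43 library lay within the WT range. With the less even WT split of 137 and 574 reads, the lower WT library would be at 10.2 or 7.11 RPM, within reach of MD43 in both cases. Whether the genotypes overlapped for Neurog2 is therefore not settled by the deposited values. How often genotypes lie apart in this way over all features was not computed.

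**Figure D2:**
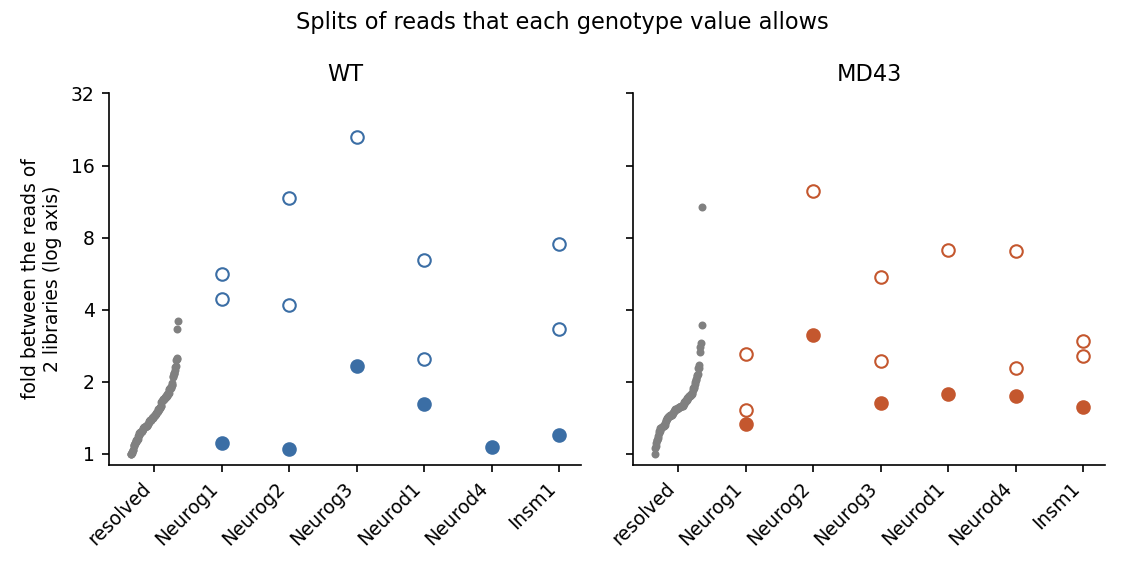
Fold between the counts of both libraries within a genotype (log axis), WT on the left and MD43 on the right. Grey points are the genes with known counts (113 in WT, 93 in MD43), sorted by value. Filled points are the most even split that each factor's value allows, and open points the next 2 where they lie under 32-fold. The most even split of Neurog2 in MD43 was 3.12-fold, above all but 2 grey points of its panel.

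Neurog1 (ENSMUSG00000048904, chr13:56250478-56252163, minus strand), the neurogenin of the trigeminal and olfactory placodes, was nearly level between genotypes. It stood at 6.14 RPKM in WT from 166 reads and at 6.66 RPKM in MD43 from 251 reads. The difference was 0.12 ± 0.10, with a counting interval from -0.08 to 0.32. The most even splits were 158 and 175 reads in WT and 217 and 290 in MD43. In all 4 ways of assigning these to the deeper and shallower libraries, the 2 genotypes overlapped. How often such an overlap occurs over all features was not computed, here or for the factors below. Neurog1 and Neurog2, which are often expressed together in neural progenitors, thus had differences of 0.12 and -1.06, and their counting intervals did not overlap.

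Neurog3 (ENSMUSG00000044312, chr10:62133090-62134763, plus strand), the endocrine determinant of the pancreas, was a trace transcript. It had 4.58 reads in WT, which fixes the libraries at 3 and 7 reads or 1 and 21, and 14.1 reads in MD43, most evenly 11 and 18. With the most even splits the genotypes overlapped in 1 of the 4 assignments. The levels were 0.170 and 0.376 RPKM. The difference of 1.14 ± 0.57 (2.21-fold higher) had a counting interval from 0.03 to 2.26, so that its lower end was close to 0. The exons of Neurog3 shared 273 bp (16.3%) with those of Fam241b on the opposite strand, and 11.7% of its 75-base stretches occurred there in reverse. Fam241b had 114 reads in WT and 185 in MD43, a difference of 0.22. Whether the counting used strand is not given in the sources used here, and the part of Fam241b in the Neurog3 reads was not tested.

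The 2-fold calls of both genes depended on the pseudocount. With 0.1 RPKM added before the logarithm the difference of Neurog3 was 0.82, and with 1 RPKM it was 0.23. Neurog2 was at -1.04 and -0.89 with the same additions. Both kept their direction, which the same addition to both genotypes cannot change.

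Among the NeuroD genes, which act after the neurogenins, 1 was higher in MD43, 1 was lower and 1 had no reads. Neurod1 (ENSMUSG00000034701, chr2:79452521-79456751, minus strand), which drives the differentiation and survival of sensory and endocrine cells, stood at 2.66 RPKM in WT from 117 reads and at 3.46 RPKM in MD43 from 211 reads. The difference was 0.38 ± 0.12 (1.30-fold higher), with a counting interval from 0.14 to 0.61. The most even splits were 92 and 148 reads in WT and 158 and 281 in MD43, and the genotypes overlapped in 3 of the 4 ways of assigning them. Neurod1 was not past 2-fold, and 91.7% of the features tested had a lower difference. Its exons shared 201 bp (7.37%) with Cerkl on the same strand and 154 bp (5.64%) with the lincRNA Gm26755 on the opposite strand. Cerkl went from 7.94 reads in WT to 20 in MD43 and Gm26755 from 10.7 to 23.2, so both partners were also higher in MD43 (0.86 and 0.65). How reads in the shared exons were assigned was not tested.

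Neurod4 (ENSMUSG00000048015, chr10:130268152-130280240, minus strand), a further differentiation factor of the retina, brain and placodes, was lower in MD43. It stood at 0.558 RPKM in WT from 30.0 reads and at 0.283 RPKM in MD43 from 21.2 reads. The difference was -0.98 ± 0.29 (1.97-fold lower), with a counting interval from -1.55 to -0.40. The WT value leaves a choice of 29 and 31 reads or 1 and 899, and the most even MD43 split was 16 and 28. With these splits the genotypes overlapped in 1 of the 4 assignments. With the next MD43 split, 14 and 32 reads, the higher library could reach 1.79 RPM. That lies within the WT range in either WT arrangement of 29 and 31 reads. Neurod4 differed in the same direction as Neurog2 and lay just inside the threshold that Neurog2 had passed. With a pseudocount of 1 RPKM its difference was -0.28.

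Neurod2 (ENSMUSG00000038255, chr11:98325415-98329648, minus strand), a gene of maturing forebrain neurons, had 0 reads in all 4 libraries. A level of 3 reads, the limit that a count of 0 allows in a library, would be 0.0595 RPKM in WT and 0.0428 RPKM in MD43 at the mean depth of each genotype. Atoh1 (ENSMUSG00000073043, chr6:64729125-64731245, plus strand) had 0 reads in both MD43 libraries, and in WT 0 in one library and 2 in the other. No fold change is given for either gene. Both were at or under the detection limit of this depth.

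Insm1 (ENSMUSG00000068154, chr2:146221921-146225020, plus strand), the zinc finger factor, was the detected member with the smallest difference. It stood at 4.07 RPKM in WT from 203 reads and at 3.78 RPKM in MD43 from 262 reads. The difference was -0.11 ± 0.10, with a counting interval from -0.29 to 0.08. The most even splits were 185 and 222 reads in WT and 209 and 328 in MD43, and the genotypes overlapped in all 4 assignments.

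**Figure D3:**
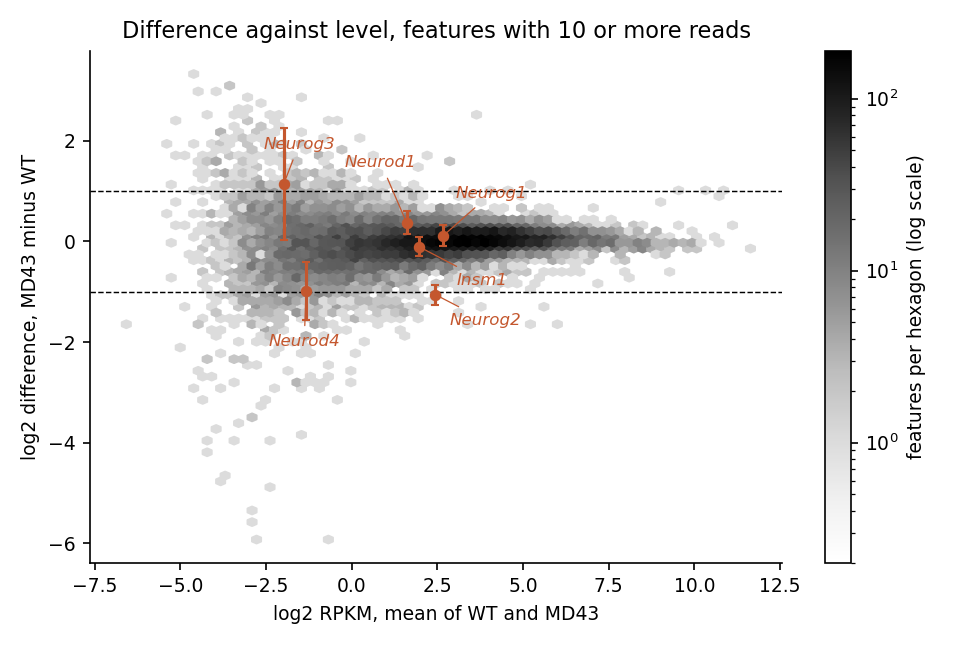
Log2 difference (MD43 minus WT) against the mean log2 RPKM of both genotypes for the 15377 features that reached 10 reads in either genotype, as grey hexagons shaded by the number of features on a log scale. Orange points are the 6 proneural factors with 1.96 times the smallest counting error, and dashed lines mark 2-fold. Neurog2 lies below the dense band of features of its level, while Neurog3 and Neurod4 lie where features with few reads scatter widely.

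The order of the factors by their genotype values differed between WT and MD43. RPKM is scaled for exon length, so levels of different genes can be set side by side. In WT the order was Neurog2 (7.84 RPKM), Neurog1 (6.14), Insm1 (4.07), Neurod1 (2.66), Neurod4 (0.558) and Neurog3 (0.170), and every step was larger than its counting interval. In MD43 it was Neurog1 (6.66), Insm1 (3.78), Neurog2 (3.77), Neurod1 (3.46), Neurog3 (0.376) and Neurod4 (0.283). There Insm1 and Neurog2, Neurog2 and Neurod1, and Neurog3 and Neurod4 differed by less than the counting interval of the step. Neurog2 was 1.28-fold above Neurog1 in WT and ranked after it in MD43. These orders are of means over 2 libraries, and the counting intervals hold no variation between embryos. Neurog2 differed at least 2.01-fold between the MD43 libraries after division by the depth ratio. The order within each embryo is therefore not known.

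Apart from the overlaps of Neurog3 and Neurod1, no 75-base stretch of a member transcript occurred in the transcript of another gene, on either strand. Reads of Neurog2 at this length thus had no other annotated transcript that they would match exactly. The nearest protein-coding genes on either side of Neurog2 did not share its difference. Zgrf1, 15111 bp to its left, went from 658 reads in WT to 995 in MD43, a difference of 0.12. Alpk1, 34678 bp to its right, had 29.3 and 54.1 reads and a difference of 0.41. Beside Neurog1, Cxcl14 at 36479 bp was at -1.51, from 42.1 reads in WT to 20.5 in MD43.

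The partners and inhibitors of bHLH factors differed in both directions. Of 7 E protein and Id genes, 0 were past 2-fold and the median difference was -0.05. Among all features tested, 2.47% were at least 2-fold lower and 1.64% higher, so a count of 0 in 7 is near those shares. Id2 was the lowest (-0.37 ± 0.04) and Tcf12, an E protein, was at -0.17 ± 0.02. Id4 (0.27 ± 0.03) and Id1 (0.12 ± 0.05) were the highest. These genes are used in many cell types of the face, and their summed level was 369 RPKM in WT and 374 RPKM in MD43.

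Of 13 other neural bHLH genes, 9 had at least 10 reads. Of these, 2 were at least 2-fold lower and 0 higher, against 2.47% and 1.64% of all features tested. The median difference was -0.49. Olig3, a factor of dorsal neural progenitors and thalamus, had 32.1 reads in WT and 0 in both MD43 libraries, and was at least 14.9-fold lower against a floor of 3 reads. Bhlhe22 had 25.0 reads in WT and 3.16 in MD43, a difference of -3.46 ± 0.64. Nhlh1, expressed in newly born neurons, was at 0.06 ± 0.12. Neurod6, Ptf1a and Bhlhe23 had at most 3 reads in both genotypes. Together with the members, Neurog2, Bhlhe22 and Olig3 were the 3 neural bHLH genes at least 2-fold lower, and Neurog3 was the 1 at least 2-fold higher.

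Of 20 Notch pathway genes, 0 were past 2-fold in either direction, and the median difference was -0.01. Dll3 (-0.70 ± 0.14) and Dll4 (-0.60 ± 0.15), both Notch ligands, were the lowest. Hey1 (0.38 ± 0.05), a repressor induced by Notch, and Lfng (0.23 ± 0.05), a glycosyltransferase that modifies the receptor, were the highest. Of 25 genes reported as targets of proneural factors, 20 were lower and 5 higher in MD43, 0 were past 2-fold, and the median was -0.22. Scrt2 (-0.87 ± 0.22) and Scrt1 (-0.74 ± 0.19), repressors of newly born neurons, were the lowest, and Ebf1 (0.46 ± 0.16) and Ebf2 (0.14 ± 0.12) the highest. Among all features tested, 7507 were lower and 7870 higher. Past 2-fold, 2.47% were lower and 1.64% higher, so a count of 0 in either list is near those shares. Some genes, such as Dll3 and Nhlh1, stood in more than 1 of these lists.

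Of 17 genes of young neurons, 16 were lower and 1 higher in MD43, and the median was -0.52. Past 2-fold were 0, near the shares of all features tested (2.47% lower and 1.64% higher). Onecut1 (-0.97 ± 0.33) and Nefl (-0.74 ± 0.13), a neurofilament subunit, were the lowest. Elavl2 was at -0.02 ± 0.05, and Tubb3, the neuronal tubulin, at 0.02 ± 0.03. The summed level of this list was 164 RPKM in WT and 148 RPKM in MD43. Of these sums, Tubb3 alone gave 77.8 RPKM in WT and 79.0 RPKM in MD43. The difference of Neurog2 was larger in size than that of each of these 17 genes, although that of Onecut1 was within its counting error of it.

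Neurog3 was set beside genes of pancreatic endocrine cells. Of 13 such genes in the table, 7 had at most 3 reads in both genotypes (Pdx1, Pax4, Rfx6, Mnx1, Gcg, Ins1 and Ins2), so the markers that define those cells were not detected at this depth. Of the 5 with at least 10 reads, 3 were at least 2-fold lower and 1 higher, against 2.47% and 1.64% of all features tested. The median was -1.33 (-0.79 with 0.1 RPKM added before the logarithm). The lower ones were Nkx6-1 (-3.96 ± 0.58), Nkx2-2 (-2.83 ± 0.32) and Chgb (-1.33 ± 0.55), of which the NKX factors are also patterning genes of the ventral neural tube. Chga was at -0.16 ± 0.17. Ghrl had 0 and 2 reads in the WT libraries and 11.0 reads in MD43. With WT set to a floor of 3 reads, Ghrl was 2.63-fold higher in MD43, a difference of 1.39. The deposited values gave a difference of 2.55, with a counting interval from 0.66 to 4.45. That difference and its interval rest on the value that stands for the WT library without reads.

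**Figure D4:**
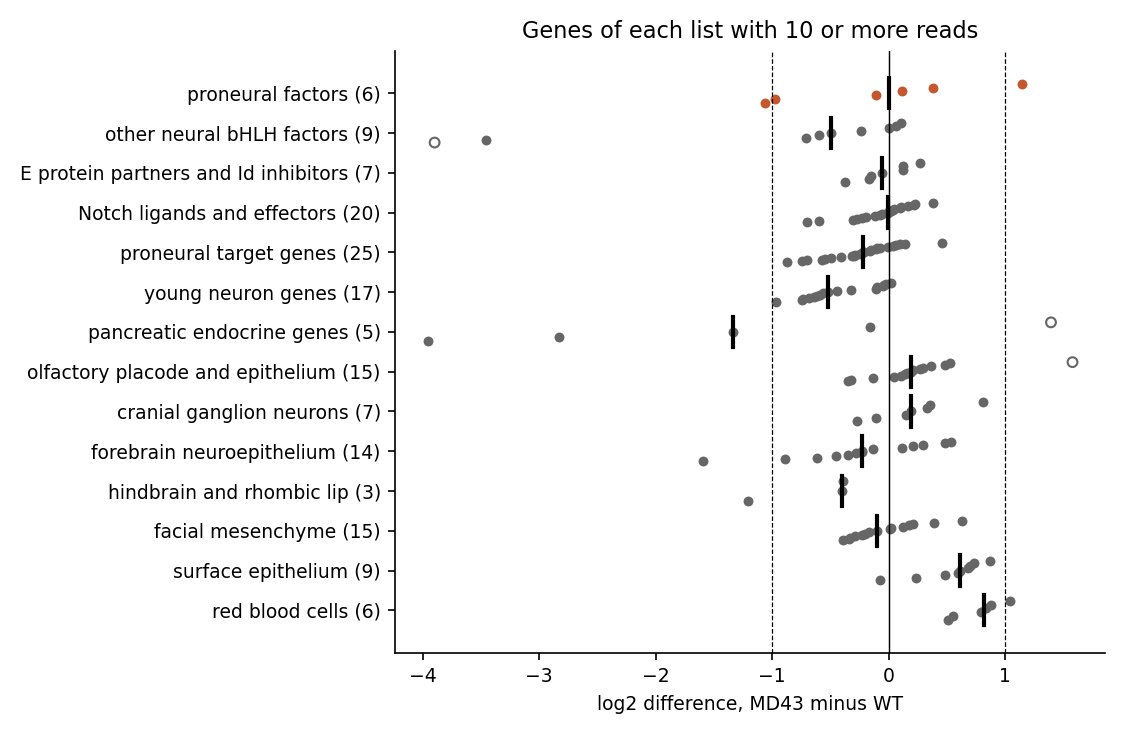
Log2 difference (MD43 minus WT) of every gene that reached 10 reads in either genotype, by list, with the number of such genes in brackets. Black bars are list medians, the thin line is the median of all features (0.01), and dashed lines mark 2-fold. Open circles are genes with at most 3 reads in a genotype, drawn with that genotype at 3 reads. The proneural factors spread on both sides of 0, while 16 of 17 young neuron genes lie below 0 and all 6 red blood cell genes above it.

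Markers of several tissues that an FNP dissection can hold differed between the genotype values, while the summed level of facial mesenchyme was nearly the same. The part of these tissues in the differences above was not tested. The facial mesenchyme list was present in full, 15 of 15 genes, with a summed level of 201 RPKM in WT and 199 RPKM in MD43 and a median difference of -0.10. It included Twist1 (-0.39 ± 0.05) and Snai2 (-0.34 ± 0.11) on the lower side, and Pax7 was at 0.39 ± 0.06. Forebrain neuroepithelium genes, 14 of 14 detected, were at 369 RPKM in WT and 341 RPKM in MD43, with a median of -0.23. Their ends were Tbr1 (-1.60 ± 0.17), a factor of newly born cortical neurons, and Fabp7 (-0.89 ± 0.05) on the lower side, and Emx1 (0.54 ± 0.08) and Lhx2 (0.49 ± 0.02) on the higher side. Neurog2, Tbr1 and Fabp7 are all known from the dorsal forebrain, while Emx1 and Lhx2, from the same region, were on the other side of 0.

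Olfactory placode genes, 15 of 16 with at least 10 reads, stood at 253 RPKM in WT and 276 RPKM in MD43, with 12 higher and 3 lower and a median of 0.19. Pax6 (-0.35 ± 0.03) and Fezf1 (-0.33 ± 0.05) were the lowest and Dlx5 the highest of those with more than 3 reads in both genotypes (0.52 ± 0.10). Hesx1 had 0 and 6 reads in the WT libraries and 12.4 reads in MD43. With WT set to a floor of 3 reads, Hesx1 was 2.98-fold higher in MD43, a difference of 1.58. The deposited values gave a difference of 1.95, with a counting interval from 0.21 to 3.68. That difference and its interval rest on the value that stands for the WT library without reads. Of 12 cranial ganglion genes, 7 reached 10 reads, 2 were lower and 5 higher, with a median of 0.19 and a summed level of 16.7 RPKM in WT and 18.9 RPKM in MD43. Prrxl1, Runx3 and Tlx3, markers of sensory ganglion neurons, had at most 3 reads in both genotypes. Prdm12 (0.81 ± 0.32) and Runx1 (0.36 ± 0.14) were the highest, and Ntrk2 (-0.27 ± 0.06) and Pou4f1 (-0.11 ± 0.32) the lowest.

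Only 3 of 11 hindbrain genes reached 10 reads, among them Pax2 (-1.20 ± 0.21) and Lmx1a (-0.40 ± 0.09). Egr2, Hoxa2, Hoxb2, Barhl1, En1 and En2 had at most 3 reads in both genotypes, as did Atoh1, the proneural factor of that region. The list stood at 6.88 RPKM in WT and at 0.726 times that in MD43. Of the WT level, 4.75 RPKM came from Lmx1a. The median, over 3 genes, was -0.40, the value of Lmx1a, so the list rests on few genes. Surface epithelium was higher in MD43, 124 RPKM against 192 RPKM, with 8 of 9 genes higher and a median of 0.61, from Grhl3 (-0.07 ± 0.10) and Trp63 (0.23 ± 0.06) to Cdh1 (0.73 ± 0.05) and Cldn6 (0.87 ± 0.05). Red blood cell genes were higher in 6 of 6, 3058 RPKM in WT and 5812 RPKM in MD43, with a median of 0.82, from Epor (0.51 ± 0.19) to Klf1 (0.88 ± 0.20) and Hbb-bh1 (1.04 ± 0.01).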

How the data were processed

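Polyadenylated RNA of the FNP was sequenced in 4 libraries, 2 of each genotype, made from 100 ng of RNA with a stranded kit and read as single 75-base ends. Groups, replicate numbers and sexes come from the labels. Per the labels, the authors used bcl2fastq, Trim Galore (version 0.4.4) and HISAT2 (version 2.0.5) on GRCm38.p6, and SeqMonk for quantification. The deposited values are log2 RPKM, normalised by the authors for exon length and library size, in 1 column per genotype, with sex chromosomes left out. The table has 3 further columns of the authors' own comparison (a fold change, an average and a false discovery rate), which were not used.

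The table was joined to GENCODE M21 by symbol and position (33101 of 33708 rows). Features without reads, taken as 0.9 reads per library, fixed the scale, and each log2 value, doubled and taken out of the logarithm, gave the product of both counts. Products under 1000 were whole within 0.01 in 99.8% of cases for each genotype, and those from 10000 to 100000 within 0.1 in 99.8% (WT) and 99.7% (MD43). A run on values simulated by the same rule checked the code only, and cannot show that the deposited values were made by that rule. Counts cannot be assigned to embryos. The quantity called smallest counting error comes from the most even split of the product. Where a product was above 200000, both libraries were set to the geometric mean.

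The members and lists were chosen with earlier results of these data known. All members are named, and of each other list the 2 lowest and 2 highest differences among genes that reached 10 reads. Chgb, the neighbours and the overlapping genes fall outside this rule, and Chgb was named after its value was seen. Alternatives were pseudocounts of 0.1 and 1 RPKM, 2 scalings, a quadratic correction for GC content and length, other filters and a 1.5-fold threshold. An edgeR test, planned in case counts were found, was not run. Alas2 and Dcx were not analysed here. A few genes that the rule names are not reported here. Python 3.11.15, pandas 2.3.3, numpy 2.4.6, sympy 1.14.0 and matplotlib 3.10.9 were used.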

Additional observations from a re-analysis of the deposited data

How the results depend on the processing

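No paired analysis was possible because the deposited table holds no values per library, and for the same reason leaving out a replicate and a model with a replicate block were not run. The 6 detected factors kept their direction under all 5 other scales. A pseudocount cannot change direction, and the 2 scalings subtract 0.006 and 0.013, less than any of the 6 differences in size. Only the GC and length correction could have changed it. A pseudocount of 1 RPKM left 0 factors at least 2-fold lower and 0 higher, and one of 0.1 RPKM left 0 higher, since a pseudocount shrinks differences of low genes by construction. The other scales left both counts at 1. Without a filter, the median difference was -0.29 for the proneural factors, where Neurod2 and Atoh1 enter with their stand-in for 0 reads, -0.19 for cranial ganglion genes and -0.48 for pancreatic endocrine genes, the value that a gene without reads takes in this table. With 0.1 RPKM added it was -0.79 for pancreatic endocrine genes, and with 1 RPKM -0.17 for them, -0.21 for young neuron genes, -0.15 for proneural targets, 0.54 for surface epithelium and 0.70 for red blood cells. With the GC and length correction it was -0.27 for forebrain genes. With a minimum of 50 reads in place of 10 it was -0.24 for other neural bHLH genes. Of 112 list values, 102 moved by less than 1.96 times the counting error of the list's mean, which stands in for that of the median. Of all features, 1457 were lower and 640 higher past 2-fold without a filter, 119 and 39 with at least 50 reads (12580 features), and 989 and 652 past 1.5-fold.

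With 1 value per genotype the variation between embryos is unknown, and differences were not checked against it here, the authors' own test column being left unused. For Neurog2 the depth ratio of the libraries bears on the gap within MD43, and the ratios at the quartiles were added after seeing the data, as was setting genotypes at or under 3 reads to 3 reads, which left every list median as it was. A pair of libraries shared a mother, which cannot be followed in the values. Depth limits the low genes most, as for Neurog3, whose 4.58 reads in WT leave an error of at least 0.57.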
